A study of Mus musculus with 24 samples.

Results

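The step from day 5 to day 6 of differentiation was examined in mouse embryonic stem cells (mESCs) by RNA-seq. It was covered by 10 of the 24 samples of the series, namely the 5 libraries of day 6 set against the 5 libraries of day 5. The cells were male C57/Bl6 mESCs that had been expanded in 2i medium, which holds the naive state with 2 kinase inhibitors, and then moved in increments to serum medium without LIF. Each of the 5 culture series carried 1 retroviral short hairpin RNA (shRNA), was selected with puromycin and gave 1 library on each day. Per the methods of the study, the hairpins were brought in on day 2 of differentiation. The series Nons carried a nonsilencing hairpin and had no targeted gene, the series Smarca4.4 and Smarca4.6 carried hairpins against *Smarca4*, the ATPase of the BAF chromatin remodelling complex, and the series Smarcc1.6 and Smarcc1.7 carried hairpins against *Smarcc1*, a core subunit of the same complex. A genotype label calls the Smarca4 libraries a Smarcc knockdown, and their titles were followed. All libraries shared the strain, the retroviral infection, the puromycin selection and the differentiation, and no uninfected culture entered the comparison. Nons was a single series here, since the 4 samples of its replicate 2 were not analysed here, and each knockdown was 2 series with different hairpins. Nothing in the labels says that the series were separate experiments, so *p*-values measure the spread between these series, and the day cannot be told apart from anything else that differed between the harvests.

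The hairpin target sites are shown because they are the only difference in design between the 5 series. Each is a run of 22 bases in the sense direction, without capitals.
Nons: ctctcgcttgggcgagagtaag
Smarca4.4: actggagtcagacagtaataaa
Smarca4.6: actgatgaacactattatgcaa
Smarcc1.6: gcaggatgaagaagcagttaca
Smarcc1.7: tcagaaggaagaagatgagcaa
The Nons run had no match among the transcripts of the GENCODE vM21 annotation. On the mm10 (GRCm38) plus strand, the Smarca4.4 site lies at chr9:21703327-21703348 in exon 34 of *Smarca4*, in the 3′ UTR of 3 of its 4 coding transcripts. The Smarca4.6 site lies at chr9:21670504-21670525 in coding sequence of exon 19 or 22, in 4 of 4 coding transcripts. The Smarcc1.6 site lies at chr9:110177472-110177493 in coding exon 13 of *Smarcc1*, and the Smarcc1.7 site at chr9:110173911-110173932 in coding exon 11, each in 4 of 6 coding transcripts. The number of other genes that held any of these sites was 0.

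When naive mESCs leave 2i and LIF they lose the naive transcription factors, pass through a formative or primed state marked by genes such as *Fgf5*, *Otx2* and *Dnmt3b*, and then begin to express genes of differentiating lineages. Actin-binding and contractile genes are classical targets of serum response factor (SRF), which binds the CArG box together with MRTF cofactors that respond to free actin. *Cyr61*, *Ctgf* and *Ankrd1* are classical targets of YAP and TAZ, which act through TEAD factors at the letters GGAATG.

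Values are rpm, reads scaled to the size of the library, which are not corrected for gene length, so levels are compared between days and never between genes. Fold changes are on the log2 scale, from a limma fit that held the series as a block. The SE is limma's moderated standard error, in which a gene's variance is drawn toward that of all genes at its level. It is therefore not the plain spread of the 5 steps, and can be smaller for genes whose series differ most. Adjusted *p* is by Benjamini-Hochberg, with a threshold of 0.05. Where 5 values follow each other they are in the order Nons, Smarca4.4, Smarca4.6, Smarcc1.6 and Smarcc1.7. The libraries held 6829596 to 23551166 reads on day 5 and 15717152 to 22472113 on day 6. The smallest is the Smarca4.4 library of day 5, and the other 4 of that day held at least 19747429. A count of 3 reads, taken as the least that can be told from none, was worth 0.127 to 0.439 rpm in these 10 libraries. The 10 most abundant genes took 5.53 to 6.5% of the reads on day 5 and 6.35 to 9.13% on day 6. The markers of the labelled cell type were present: 7 mESC genes, including *Pou5f1*, *Sox2* and *Nanog*, summed to 3323 to 5137 rpm on day 5 and 2212 to 4160 rpm on day 6.

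Of 13296 genes tested, 5487 (41.3%) changed from day 5 to day 6. Of these 2869 (21.6% of those tested) were higher on day 6 and 2618 (19.7%) lower. Without the series block 2724 were called, 1522 higher and 1202 lower. Among the calls 4909 moved in the same direction in all 5 series and 576 in 4. The rise was at least 2-fold in 959 genes and at least 4-fold in 154, and the fall was at least 2-fold in 506 and at least 4-fold in 76. The smallest change called was 0.25 on the log2 scale, and the median of all genes tested was 0.01. The shares of 21.6% higher and 19.7% lower are the background against which the count of each gene list below is to be read, and a list near them moved like the genes tested as a whole. The values of the 2 days did not overlap in 2043 genes (15.4%). Cultures were measured in bulk, so fewer cells of a type and less RNA per cell cannot be told apart.

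**Figure D1:**
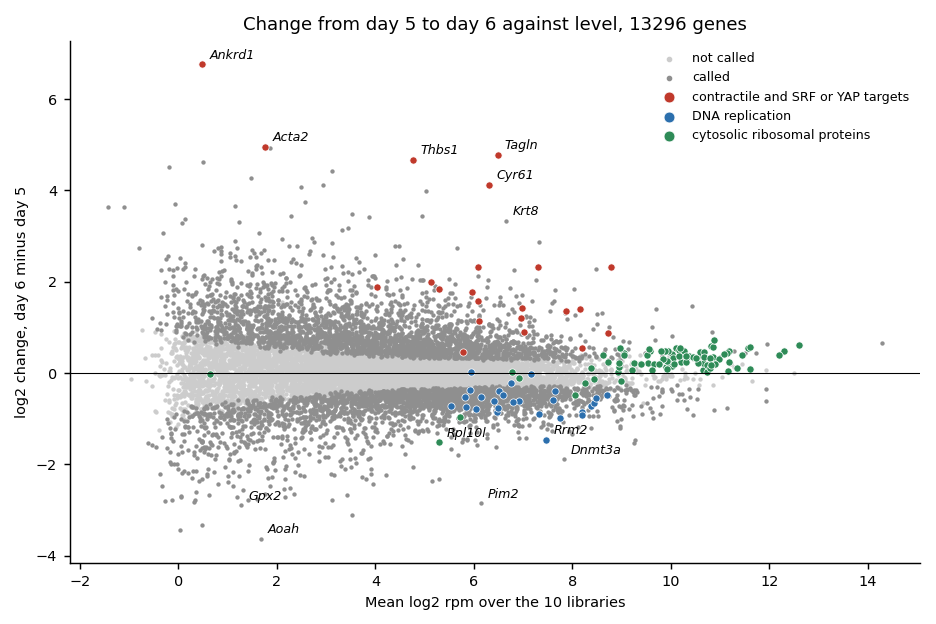
Each point is 1 of the 13296 genes tested, with its mean log2 rpm over the 10 libraries on the x axis and its log2 change from day 5 to day 6 on the y axis. Darker grey points were called at an adjusted p under 0.05. The contractile and SRF or YAP target genes (red) all lie above 0, 24 of the 27 DNA replication genes (blue) were called lower, and cytosolic ribosomal protein genes (green) lie mostly at high levels and close to 0.

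The targeted genes were read first. *Smarcc1* (chr9:110132037-110240178, plus strand) stood at 259.8, 326, 210.1, 61.5 and 109 rpm on day 5 and at 127, 242, 149, 43.6 and 76.4 rpm on day 6. The 2 libraries with hairpins against it were the lowest of their day on both days, and all 5 series fell, with a change of -0.59 ± 0.115 (SE, adjusted *p* = 0.00188). The fall was 1.03 on the log2 scale in Nons and 0.43 to 0.52 in the other 4, and the call was lost without the series block. *Smarca4* (chr9:21616169-21704230, plus strand) stood at 151, 49.5, 36.3, 90.8 and 236 rpm on day 5 and at 90.4, 50.03, 19.5, 96.7 and 202 rpm on day 6, lowest on both days in the 2 series with hairpins against it. Its change did not pass the test, at -0.35 ± 0.154 (SE, adjusted *p* = 0.0872), with 3 of 5 series moving down. It was called without a filter on low values, with values centred on the median gene and without the Smarcc1.6 series, where the change was -0.46. Of 25 genes of BAF subunits tested, 3 were higher on day 6, 7 were lower and 15 did not pass, and only 2 were called lower without the series block. Without the Smarca4.4 or the Smarcc1.6 series 0 were called higher by limma. The lower ones included *Bcl11a*, a subunit of lymphoid and neural forms of the complex (-1.72, adjusted *p* = 3.42e-05), and the higher ones *Smarcd3*, a subunit known from heart muscle (0.76, adjusted *p* = 0.0141). The call of *Smarcd3* was lost without the Smarca4.4 series (0.73) and without the Smarcc1.6 series (0.63).

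Contractile and SRF or YAP target genes rose together. Of 23 on the list, 22 were tested and 22 were higher on day 6, with a median change of 1.81 against 0.01 for all genes tested. Without the series block 20 were called, and with any 1 series left out 21 or 22. The median was 1.79, 2.07, 1.46, 1.80 and 1.68 in the 5 series. *Actg2*, an actin of smooth muscle, did not pass the filter on low values. This list, like the others, was chosen with earlier results of these data known, so its counts describe the list and are no independent test.

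*Tagln*, which encodes the actin-binding protein transgelin (chr9:45929628-45936058, minus strand), stood at 35.4, 17.3, 18.5, 11.5 and 10.8 rpm on day 5 and at 1311, 446, 344, 412 and 269.9 rpm on day 6. Every library of day 6 was above every library of day 5, and Nons was the highest of the 5 on both days. The change was 4.78 ± 0.146 (SE, adjusted *p* = 3.35e-09). *Cyr61*, a secreted matricellular protein (chr3:145646971-145649985, minus strand), went from 27.5, 21.1, 25.4, 11.03 and 15.1 rpm to 519, 495, 349, 194 and 236 rpm, and the Smarcc1.6 series was the lowest on both days. *Thbs1*, the matricellular protein thrombospondin 1 (chr2:118111876-118127133, plus strand), went from 7.04, 10.1, 7.05, 1.89 and 4.84 rpm to 166, 277, 143, 60.1 and 124 rpm. Neither gene's days overlapped, and the changes were 4.13 ± 0.126 (SE, adjusted *p* = 3.35e-09) for *Cyr61* and 4.67 ± 0.133 (SE, adjusted *p* = 3.35e-09) for *Thbs1*.

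The actins of muscle started close to the detection limit. *Acta2*, the smooth muscle alpha-actin (chr19:34241090-34255336, minus strand), stood at 0.760, 0.878, 0.425, 0.554 and 0.522 rpm on day 5 and at 80.5, 9.50, 14.5, 14.2 and 15.04 rpm on day 6. All 5 series were higher on day 6, Nons by the most, and the change was 4.96 ± 0.362 (SE, adjusted *p* = 3.33e-06). *Acta1*, the skeletal muscle alpha-actin (chr8:123891767-123894736, minus strand), went from 0.861, 0.878, 0.764, 0.508 and 0.427 rpm to 65.9, 22.9, 13.2, 10.6 and 15.04 rpm, with a change of 4.92 ± 0.288 (SE, adjusted *p* = 1.02e-06). *Ankrd1*, a nuclear ankyrin repeat protein (chr19:36111965-36119844, minus strand), had 1, 4, 6, 0 and 3 reads on day 5 and 297, 461, 280, 158 and 170 reads on day 6. The days did not overlap, and its fitted change of 6.76 rests on the lowest value of the log scale, so that no fold is given for it.

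Other members of the list rose by less. *Cald1*, which encodes the actin- and myosin-binding caldesmon, went from 78.4, 99.6, 61.1, 53.7 and 66.3 rpm to 556, 490.1, 341, 206 and 288 rpm, and *Tpm1*, a tropomyosin, from 240.2, 194, 252, 160 and 153 rpm to 1635, 968, 1064, 694 and 789 rpm. In both genes every library of day 6 was above those of day 5, and the changes were 2.33 ± 0.13 (SE, adjusted *p* = 7.07e-07) and 2.33 ± 0.114 (SE, adjusted *p* = 3.24e-07). *Cnn2*, a calponin, changed by 2.33 ± 0.154 (SE, adjusted *p* = 1.75e-06), the regulatory light chain *Myl9* by 1.84 ± 0.136 (SE, adjusted *p* = 3.54e-06), *Ctgf* by 1.78 ± 0.107 (SE, adjusted *p* = 1.14e-06) and *Lats2*, a Hippo pathway kinase, by 1.89 ± 0.192 (SE, adjusted *p* = 2.84e-05). *Vcl*, which encodes the focal adhesion protein vinculin, rose by 1.20 ± 0.11 (SE, adjusted *p* = 1.44e-05). *Srf* itself went from 48.6, 52.3, 64.6, 26.1 and 50.9 rpm to 51.4, 97.3, 59.3, 48.99 and 74.96 rpm. The days overlapped, 4 of 5 series moved up, and the change of 0.46 ± 0.162 (SE, adjusted *p* = 0.0384) was no longer called without the Smarca4.4 (0.36), Smarcc1.6 (0.35) or Smarcc1.7 (0.44) series, or without the series block.

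**Figure D2:**
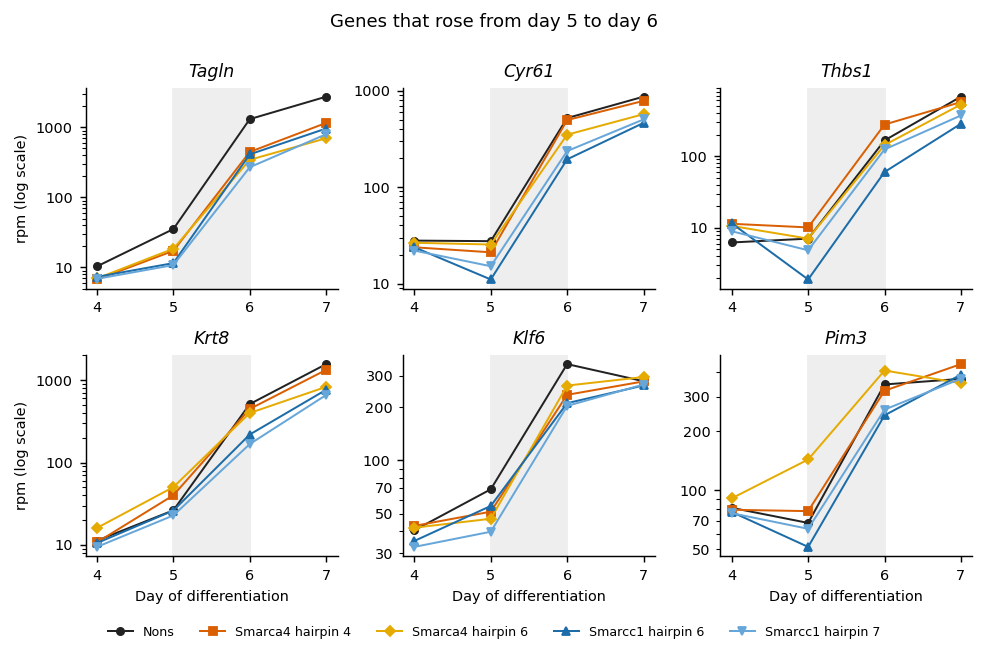
The level in rpm (log scale) of 6 genes that rose is plotted against the day of differentiation, with a line for each of the 5 series and the step from day 5 to day 6 shaded. In all 6 panels each series is higher on day 6 than on day 5. The mean log2 changes from day 6 to day 7 were 1.25 (*Tagln*), 0.89 (*Cyr61*), 1.75 (*Thbs1*), 1.61 (*Krt8*), 0.16 (*Klf6*) and 0.31 (*Pim3*).

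Promoters of the genes that rose together are shown as RefSeq gives them for GRCm38.p6, 300 bases from 250 before to 50 after the gene's start, 5′ to 3′ on the gene's strand. Both strands were searched for GGAATG, the letters known for TEAD factors, and for the CArG box, and capitals mark the matches (CATTCC is GGAATG on the other strand). *Cyr61* (listed as Ccn1 in RefSeq) and *Ankrd1* are shown for the first and *Cnn2* and *Srf* for the second.
Cyr61, chr3:145649936-145650235, minus strand, match at -103: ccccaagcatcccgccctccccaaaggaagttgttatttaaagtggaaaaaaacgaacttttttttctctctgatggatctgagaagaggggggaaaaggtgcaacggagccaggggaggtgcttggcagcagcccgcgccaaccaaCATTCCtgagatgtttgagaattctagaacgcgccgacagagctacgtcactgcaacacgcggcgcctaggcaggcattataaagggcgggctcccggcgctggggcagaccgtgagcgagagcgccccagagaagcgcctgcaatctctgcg
Ankrd1, chr19:36119795-36120094, minus strand, matches at -210 and -123: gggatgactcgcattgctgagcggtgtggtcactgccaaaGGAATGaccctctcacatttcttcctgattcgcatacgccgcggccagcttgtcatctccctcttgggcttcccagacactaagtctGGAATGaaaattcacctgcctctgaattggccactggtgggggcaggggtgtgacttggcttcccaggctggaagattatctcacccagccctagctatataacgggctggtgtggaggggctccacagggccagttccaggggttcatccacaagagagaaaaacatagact
Cnn2, chr10:79988350-79988649, plus strand, match at -56: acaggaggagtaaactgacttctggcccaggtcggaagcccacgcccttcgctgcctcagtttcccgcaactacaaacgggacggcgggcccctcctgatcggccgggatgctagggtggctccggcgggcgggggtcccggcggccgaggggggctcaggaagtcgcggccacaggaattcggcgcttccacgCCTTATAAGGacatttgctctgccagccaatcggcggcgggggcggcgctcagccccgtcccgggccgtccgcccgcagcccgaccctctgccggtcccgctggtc
Srf, chr17:46556113-46556412, minus strand, matches at -82 and -62: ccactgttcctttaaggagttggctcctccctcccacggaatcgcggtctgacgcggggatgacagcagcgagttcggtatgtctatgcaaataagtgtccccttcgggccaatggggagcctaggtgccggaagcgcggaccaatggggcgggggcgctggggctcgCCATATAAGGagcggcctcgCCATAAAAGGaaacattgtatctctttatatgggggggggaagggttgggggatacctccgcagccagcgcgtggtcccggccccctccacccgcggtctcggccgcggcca
GGAATG stood in 16.6% of the windows of all 27025 genes with a promoter sequence, in 10 of the 19 contractile and SRF or YAP target genes with one (52.6%) and in 31 of the 119 genes that rose at least 4-fold and had one (26.1%). It stood in 16.9% of the genes called higher, 13.1% of those called lower and 13.7% of those not called. The CArG box stood in 1.81% of all windows and in 4 of the 19 genes of the list (21.1%), namely *Cnn2*, *Myl9*, *Vcl* and *Srf*. The list was made of genes known as targets of these factors, and the counts describe letters in these windows, not sites. Promoters of *Tagln*, *Thbs1* and *Ctgf* were not analysed here.

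Among immediate early genes, which respond first to serum and stress, 12 of 15 were tested, of which 6 were higher, 1 lower and 5 not called. *Klf6*, a zinc-finger factor, went from 68.7, 51.4, 46.9, 55.4 and 39.6 rpm to 349, 234, 264, 210.3 and 203 rpm. Its days did not overlap, and the change was 2.26 ± 0.112 (SE, adjusted *p* = 3.24e-07). The AP-1 genes *Jun* (1.72, adjusted *p* = 1.25e-05) and *Junb* (1.77, adjusted *p* = 6.17e-05) and the stress-induced factor *Atf3* (1.34, adjusted *p* = 0.00018) were higher in 5 of 5 series. *Fos*, at 0.405, 1.02, 2.55, 0.739 and 2.28 rpm and then 0.636, 4.09, 2.16, 2.36 and 3.56 rpm, was called (0.95, adjusted *p* = 0.0393), but not without the series block, nor without the Nons (1.02), Smarca4.4 (0.68), Smarcc1.6 (0.76) or Smarcc1.7 (1.02) series. *Egr1*, an early target of ERK signalling, fell (-1.70, adjusted *p* = 0.000391).

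Most of the listed keratin and epithelial junction genes rose. Of 23 epithelial junction and keratin genes tested, 16 were higher, 1 was lower and 6 were not called, with a median change of 0.90. *Krt8*, a keratin of simple epithelia (chr15:101996711-102004342, minus strand), went from 26.3, 40.1, 50.4, 26.2 and 22.8 rpm to 513, 448, 399.9, 219 and 168 rpm, and its partner *Krt18* (chr15:102028216-102032026, plus strand) from 64.2, 60.5, 115, 37.7 and 42.9 rpm to 711, 458, 653, 255 and 291 rpm. Neither gene's days overlapped, and the changes were 3.34 ± 0.179 (SE, adjusted *p* = 7.07e-07) and 2.88 ± 0.133 (SE, adjusted *p* = 2.88e-07). *Krt19* rose by 3.48 ± 0.278 (SE, adjusted *p* = 5.96e-06), from 5.37, 2.64, 4.20, 2.40 and 3.46 rpm to 152, 32.8, 24.01, 31.02 and 22.9 rpm, with Nons far above the other 4 on day 6. *Cldn4*, a claudin of tight junctions, rose by 1.87 ± 0.12 (SE, adjusted *p* = 1.6e-06) and *Dsp*, the desmosomal protein desmoplakin, by 1.91 ± 0.174 (SE, adjusted *p* = 1.44e-05). *Cdh1*, the adhesion molecule E-cadherin, stood at 497, 458, 405, 234 and 435 rpm and then 609, 695, 445, 315 and 533 rpm. Its days overlapped, and the rise of 0.35 ± 0.0995 (SE, adjusted *p* = 0.015) was not called without the Smarca4.4 (0.29) or Smarcc1.6 (0.33) series. *Grhl2*, a transcription factor of epithelia, fell in 5 of 5 series (-0.50, adjusted *p* = 0.0125), and that call was lost without the Smarcc1.7 series (-0.49).

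Of 14 trophoblast genes tested out of 20, 10 were higher, 2 were lower (1 without the Smarcc1.7 series) and 2 were not called, and 4 of the 10 are the keratins *Krt7*, *Krt8*, *Krt18* and *Krt19*. *Tead4*, a TEAD factor of the trophectoderm, went from 1.32, 1.76, 1.66, 1.94 and 2.37 rpm to 7, 8.75, 5.72, 5.29 and 7.36 rpm (1.92, adjusted *p* = 5.97e-05), and *Gata3*, a trophoblast factor, from 1.37, 2.20, 3.61, 1.52 and 1.85 rpm to 5.15, 7.31, 6.48, 2.09 and 5.14 rpm (1.29, adjusted *p* = 0.00201). The days did not overlap for *Tead4* and did for *Gata3*. *Ascl2*, an imprinted trophoblast factor, fell in 5 of 5 series (-1.67, adjusted *p* = 0.000264). Of the trophoblast-defining markers *Cdx2*, *Elf5* and *Tpbpa*, none passed the filter on low values. The 5 trophoblast markers *Cdx2*, *Elf5*, *Gata3*, *Krt7* and *Tpbpa* summed to 5.26 to 13.3 rpm on day 5 and 18 to 40.5 rpm on day 6. That sum lay mostly in the keratin *Krt7*, with a mean of 5.617 rpm on day 5 and 25.1 rpm on day 6. *Gata3* had means of 2.109 and 5.236 rpm, and *Elf5* was under 1 rpm in all 10 libraries.

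Most of the tested genes known from primitive and visceral endoderm were higher, while most factors that define that lineage were close to 0. Of 15 endoderm genes tested out of 25, 12 were higher and 0 lower, with 3 not called and a median change of 0.98, and without the series block 7 were called. Among its largest rises were *Sparc*, a secreted matrix protein, which went from 132, 94.2, 117, 116 and 111 rpm to 496, 321, 314, 296 and 250.5 rpm (1.53, adjusted *p* = 5.94e-06), *Apoe*, the lipid carrier apolipoprotein E (1.40, adjusted *p* = 9.12e-06), and *Cited1*, a transcriptional coregulator (2.17, adjusted *p* = 3.98e-05). *Gata4*, a factor that defines this lineage, stood at 0.658, 1.61, 1.53, 0.646 and 1.23 rpm and then 0.891, 2.02, 1.84, 2.54 and 4.63 rpm. The days overlapped, and its call (0.98, adjusted *p* = 0.0331) was lost without the Smarcc1.6 (0.73) or Smarcc1.7 (0.75) series. The defining markers *Gata6*, *Sox17*, *Foxa2* and *Afp* were under 1 rpm in all 10 libraries, and with *Gata4* they summed to 1.52 to 2.51 rpm on day 5 and 1.08 to 6.35 rpm on day 6.

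Of 25 collagen, laminin and matrix genes tested, 16 were higher, 0 lower and 9 not called, and 7 were called higher without the series block. *Itgb1*, the integrin beta 1 chain, rose by 1.32 ± 0.0945 (SE, adjusted *p* = 3.03e-06), from 293, 306, 244, 209.5 and 196 rpm to 795, 695, 621, 477 and 524 rpm, with no overlap. *Col4a2*, a chain of basement membrane collagen, rose by 1.40 ± 0.211 (SE, adjusted *p* = 0.000389), and *Bgn*, the proteoglycan biglycan, by 2.13 ± 0.376 (SE, adjusted *p* = 0.00104) from a low level. *Col1a1*, the fibrillar collagen typical of fibroblasts, went from 1.06, 3.51, 3.35, 1.25 and 4.13 rpm to 2.04, 9.50, 2.54, 5.79 and 13.7 rpm. It rose in 4 of 5 series (1.18, adjusted *p* = 0.0122), and the call was lost without the Smarcc1.7 series (1.05). The 4 fibroblast or feeder markers *Col1a1*, *Col1a2*, *Thy1* and *Pdgfrb* summed to 5.31 to 12.2 rpm on day 5 and 7.94 to 29.6 rpm on day 6, and none of them was under 1 rpm in all 10 libraries. *Col1a1* and *Pdgfrb* of these rose beside the contractile and matrix genes while *Thy1* did not pass the test (-0.14, adjusted *p* = 0.624), and the part of such cells in those rises was not tested. Of 13 mesenchymal genes tested, 4 were higher and 1 was lower, *Zeb1*, a repressor of epithelial genes (-0.96, adjusted *p* = 0.00736).

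**Figure D3:**
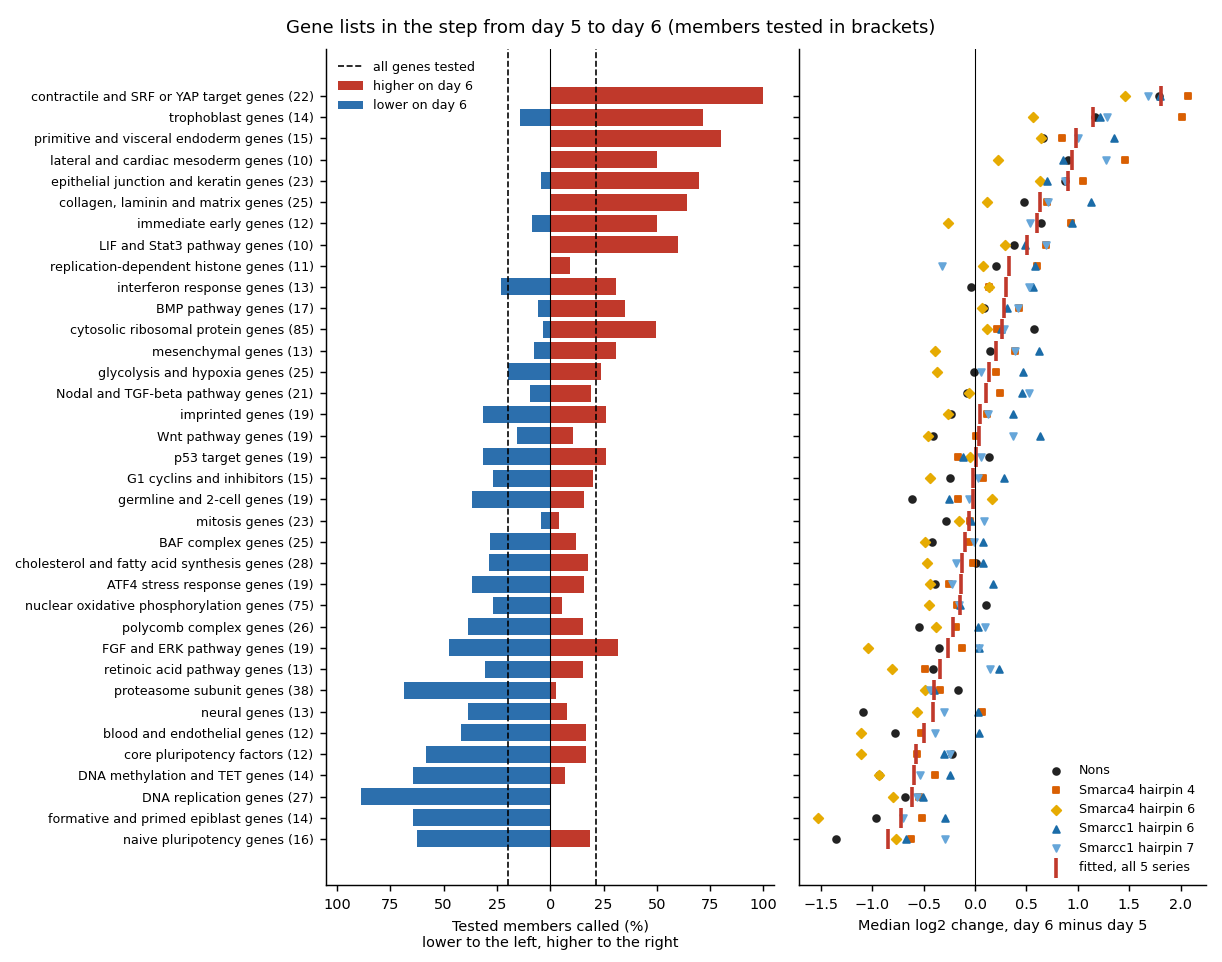
For each gene list with at least 10 tested members (number in brackets), the left panel shows the percentage of tested members called lower (blue, to the left) or higher (red, to the right) on day 6, with dashed lines at the 19.7% and 21.6% of all genes tested. The right panel shows the list's median log2 change in each of the 5 series and in the fit over all 5. For the contractile list all 5 series lie at 1.46 or above.

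The largest rises outside those lists were in genes with different known roles. *Tinagl1*, a secreted matricellular protein, went from 1.27, 2.93, 4.59, 0.970 and 1.38 rpm to 51.9, 42.8, 53.7, 25.3 and 35.2 rpm (4.43, adjusted *p* = 7.07e-07). *Anxa3*, an annexin that binds phospholipids, went from 2.89, 1.90, 2.72, 1.62 and 0.901 rpm to 84.1, 33.7, 31.1, 23.1 and 16.3 rpm (4.11, adjusted *p* = 3.24e-07). *Mme*, the membrane peptidase neprilysin, went from 8.61, 10.2, 6.20, 10.5 and 6.31 rpm to 203, 123, 196, 66.9 and 110.5 rpm (3.98, adjusted *p* = 1.73e-06). The days of these 3 genes did not overlap. *Cryab*, a small heat shock protein (4.27, adjusted *p* = 3.2e-06), and *Cxcl10*, a chemokine induced by interferon (4.08, adjusted *p* = 1.75e-06), were also among the 10 largest rises.

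Pluripotency genes moved in both directions. Of 12 core factors 7 were lower, 2 higher and 3 not called, with a median of -0.57, and 4 were called lower without the series block. *Pou5f1* (Oct4), the factor that pluripotency depends on (chr17:35506037-35510776, plus strand), went from 1084, 936, 1143, 1450 and 1035 rpm to 785, 357, 459, 907 and 498 rpm. *Sox2*, its partner on DNA (chr3:34650005-34652461, plus strand), went from 159, 165, 191, 177 and 184 rpm to 62.5, 67.5, 65.9, 104 and 116 rpm. The days did not overlap in either gene, and the changes were -0.98 ± 0.136 (SE, adjusted *p* = 0.000225) and -1.12 ± 0.139 (SE, adjusted *p* = 0.000103). *Nanog* moved up in each of the 5 series, from 95.8, 156, 188, 208 and 140.4 rpm to 127, 215, 236, 262 and 195 rpm. The days overlapped, and the rise of 0.40 ± 0.0948 (SE, adjusted *p* = 0.00597) was called with the series block and not without it. *Lin28a*, an RNA-binding protein that blocks let-7 maturation, rose likewise (0.40, adjusted *p* = 0.00597), and the epigenetic factor *Dppa2* fell (-1.44, adjusted *p* = 2.57e-05).

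Of 16 naive pluripotency genes tested, 10 were lower, 3 higher and 3 not called, with a median of -0.85, and 5 were called lower without the series block. *Nr0b1* (Dax1), an orphan nuclear receptor of naive cells, went from 10.1, 5.71, 5.18, 8.17 and 6.55 rpm to 0.763, 0.748, 0.635, 1.96 and 1.52 rpm (-2.77, adjusted *p* = 2.33e-05). *Jam2*, a junctional adhesion molecule, went from 5.87, 6, 7.39, 18.1 and 7.87 rpm to 0.636, 0.691, 1.78, 5.43 and 3.24 rpm (-2.28, adjusted *p* = 0.00012). The days of both genes did not overlap, and in *Pecam1* (-1.51, adjusted *p* = 0.000145) they did. The naive factors *Esrrb* (-0.89, adjusted *p* = 0.00421) and *Zfp42* (-0.53, adjusted *p* = 0.0106) fell in 5 of 5 series, and both calls were lost without the series block. *Klf4* did not pass the test (-0.48, adjusted *p* = 0.154). By contrast *Tfcp2l1*, at 9.52, 16.2, 11.7, 12.7 and 19.3 rpm and then 20.6, 27.6, 27.1, 16.1 and 39.7 rpm (0.90, adjusted *p* = 0.000964), and *Tbx3*, at 1.17, 0.732, 2.80, 2.40 and 1.80 rpm and then 1.65, 3.86, 5.78, 4.85 and 11.5 rpm (1.53, adjusted *p* = 0.00297), rose in 5 of 5 series. Both are factors of the naive network that LIF maintains, and their days overlapped.

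Of 10 LIF and Stat3 pathway genes tested, 6 were higher, 0 lower and 4 not called. The kinase genes *Pim3*, at 68.1, 78.2, 144, 51.3 and 63.5 rpm and then 347, 322, 409, 241 and 258 rpm, and *Pim1*, at 109, 157, 197, 106 and 183 rpm and then 287, 438, 355, 319 and 446 rpm, are targets of Stat3. Every library of day 6 was above those of day 5 in both, and the changes were 2.03 ± 0.126 (SE, adjusted *p* = 1.28e-06) and 1.32 ± 0.118 (SE, adjusted *p* = 1.25e-05). The third member of the kinase family, *Pim2* (chrX:7878262-7883432, plus strand), went the other way, from 295, 252, 205, 103 and 155 rpm to 22.8, 58.3, 13.98, 28.7 and 23.6 rpm, a change of -2.85 ± 0.26 (SE, adjusted *p* = 1.44e-05). *Lif* itself rose from 2.53, 1.76, 3.99, 3.60 and 4.46 rpm to 7.25, 7.77, 4.76, 5.16 and 7.05 rpm (1.02, adjusted *p* = 0.0109), and that call was lost without the Nons (0.90) or Smarca4.4 (0.74) series. The receptor gene *Lifr* did not pass the test (-0.40, adjusted *p* = 0.0929).

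Genes of the formative and primed epiblast fell. Of 14 tested, 9 were lower, 0 higher and 5 not called, with a median of -0.72, and 6 were called without the series block. *Dnmt3a* and *Dnmt3b* encode the de novo DNA methyltransferases. *Dnmt3b* (chr2:153649450-153687730, plus strand) went from 1349, 1257, 1025, 604 and 1159 rpm to 299, 520.5, 265, 339 and 428 rpm, and *Dnmt3a* (chr12:3806007-3914443, plus strand) from 396, 445, 384, 378 and 603 rpm to 68.9, 115, 71.6, 174 and 227 rpm. Both were lower in every library of day 6 than in any of day 5, with changes of -1.53 ± 0.166 (SE, adjusted *p* = 4.28e-05) and -1.88 ± 0.185 (SE, adjusted *p* = 2.32e-05). *Lef1*, a transcription factor of the Wnt pathway, went from 27.6, 34.3, 44.97, 14.8 and 32.9 rpm to 3.75, 7.77, 5.27, 4.41 and 11.6 rpm (-2.27, adjusted *p* = 2.55e-05), and *Foxd3*, a forkhead factor of the epiblast, from 12.9, 9.96, 8.37, 4.85 and 12.7 rpm to 2.10, 2.25, 1.72, 2.58 and 2.73 rpm (-2.04, adjusted *p* = 8.62e-05). Neither gene's days overlapped. *Fgf5*, the usual marker of the primed state, stood at 53.2, 35.9, 26.9, 19.6 and 24.6 rpm and then 41.9, 31.8, 11.9, 16.5 and 17.6 rpm. Its fall (-0.49, adjusted *p* = 0.029) was not called without the series block, nor without the Nons (-0.52) or Smarcc1.7 (-0.49) series. *Otx2*, which defines the same state, went from 170.3, 98.7, 118, 66.6 and 80.8 rpm to 106, 64.7, 82.9, 87.5 and 102 rpm. It fell in Nons and both Smarca4 series, rose in both Smarcc1 series, and did not pass the test (-0.21, adjusted *p* = 0.337).

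**Figure D4:**
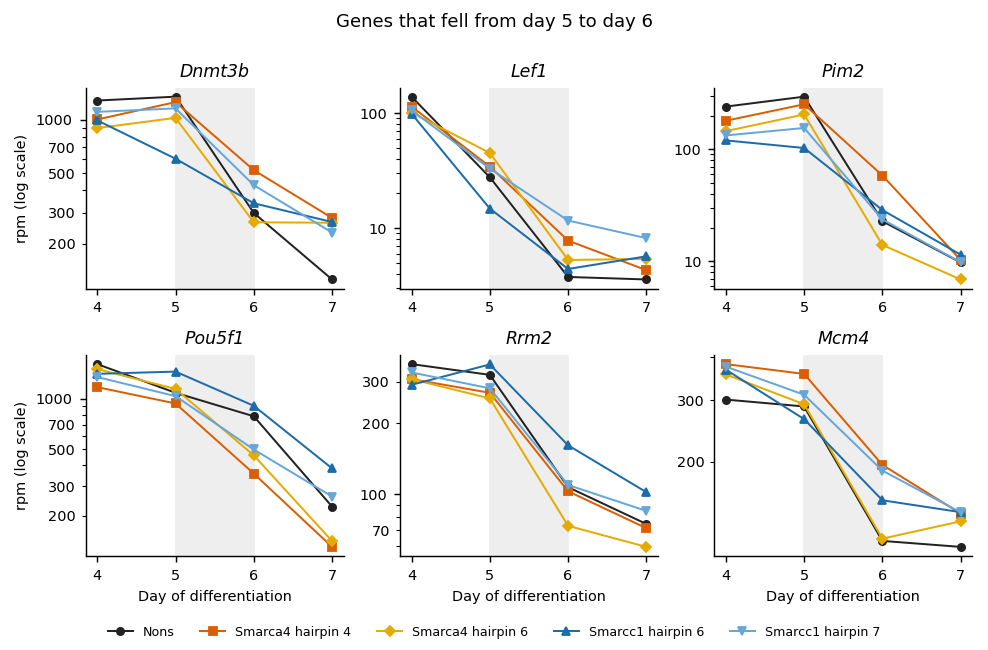
The level in rpm (log scale) of 6 genes that fell is plotted against the day of differentiation, with a line for each of the 5 series and the step from day 5 to day 6 shaded. In each panel all 5 series are lower on day 6 than on day 5.

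Of 14 genes of DNA methylation and its removal, 9 were lower, 1 higher and 4 not called, and 5 were called lower without the series block. Besides *Dnmt3a* and *Dnmt3b*, *Trim28*, the corepressor that silences retroelements, fell (-0.89, adjusted *p* = 0.000909), as did the dioxygenases *Tet1* (-1.14, adjusted *p* = 0.00071) and *Tet2* (-0.84, adjusted *p* = 0.00292). *Tet1* fell from 168, 245, 117, 134 and 270.4 rpm to 36.3, 128, 55.8, 73.7 and 175 rpm, by the most in Nons. Its days overlapped, those of *Tet2* did not, and the call of *Tet1* was lost without the series block. Of 26 polycomb genes 10 were lower, 4 higher and 12 not called, and 3 were called lower without the block, 6 without the Nons series and 5 without the Smarca4.4 series. Only 1 was called higher without the Smarca4.4, Smarcc1.6 or Smarcc1.7 series. *Jarid2*, a cofactor of polycomb repressive complex 2, went from 219, 388, 304, 230.3 and 382 rpm to 94.9, 145, 86.2, 124 and 199.8 rpm with no overlap (-1.26, adjusted *p* = 4.37e-05). Its core subunit gene *Eed* fell (-0.43, adjusted *p* = 0.00529), and *Ezh2*, the methyltransferase, did not pass the test (-0.27, adjusted *p* = 0.0784).

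The largest falls were in genes of mixed roles. *Aoah*, an enzyme that deacylates lipopolysaccharide (chr13:20794119-21024252, plus strand), went from 13.2, 12.7, 9.72, 11.4 and 9.58 rpm to 0.954, 1.04, 0.635, 1.02 and 0.952 rpm. The days did not overlap, the steps ran from -3.94 to -3.33 in the 5 series, and the change was -3.63 ± 0.202 (SE, adjusted *p* = 7.07e-07). An entry whose symbol had been turned into the date Sep-01 lies at chr7:127214447-127218498, minus strand, where GENCODE vM21 holds a septin gene, and went from 20.3, 27.2, 47.4, 48.9 and 34.5 rpm to 1.84, 2.65, 4.96, 6.72 and 5.84 rpm (-3.10, adjusted *p* = 7.07e-07). *Gpx2*, a glutathione peroxidase (-2.89, adjusted *p* = 1.36e-05), the oxidase gene *Enox1* (-2.79, adjusted *p* = 2.48e-06), *Psors1c2* (-2.75, adjusted *p* = 5.22e-05), *Ankrd35* (-2.67, adjusted *p* = 2.22e-05) and *Ttn*, the giant sarcomere protein titin (-2.72, adjusted *p* = 0.000101), did not overlap between days either. *Gm15055*, a predicted gene, had 54, 38, 174, 222 and 124 reads on day 5 and 1, 20, 20, 80 and 27 on day 6 (-2.71, adjusted *p* = 0.000847), and its days overlapped.

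Genes of DNA replication fell, and genes of mitosis were mostly not called. Of 27 replication genes 24 were lower, 0 higher and 3 not called, with a median of -0.61 that lay between -0.80 and -0.51 in the 5 series. Without the series block 18 were called, and with any 1 series left out 21 to 24. *Rrm2*, a subunit of ribonucleotide reductase (chr12:24708241-24714146, plus strand), went from 321, 269, 255, 355 and 281 rpm to 107, 103, 73.2, 161 and 109 rpm, and *Mcm4*, a subunit of the replicative helicase (chr16:15623897-15637400, minus strand), from 288, 357, 292, 265 and 312 rpm to 119, 196, 120.5, 155 and 189 rpm. Neither overlapped, and the changes were -1.46 ± 0.113 (SE, adjusted *p* = 5.18e-06) and -0.98 ± 0.117 (SE, adjusted *p* = 7.7e-05). *Mcm6* changed by -0.92 ± 0.145 (SE, adjusted *p* = 0.000523), *Mcm2* by -0.66 ± 0.0988 (SE, adjusted *p* = 0.000366), the sliding clamp gene *Pcna* by -0.72 ± 0.109 (SE, adjusted *p* = 0.000387) and *Ccne1*, the cyclin of the start of S phase, by -0.89 ± 0.107 (SE, adjusted *p* = 8.64e-05). Of 23 mitosis genes 21 were not called. Without the Nons series 2 were higher, and without the Smarcc1.6 series 2 were lower. With all 5 series the exceptions were *Ccnb2*, a mitotic cyclin that was higher (0.42, adjusted *p* = 0.00544), and *Mad2l1*, of the spindle checkpoint, that was lower (-0.44, adjusted *p* = 0.00629), and neither was called without the series block.

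The promoter of *Mcm6* is shown for this list, with capitals at the letters TTTGGCGC and at GCGCGAAA, the reverse complement of TTTCGCGC, which overlap at the first position.
Mcm6, chr1:128359656-128359955, minus strand, matches at -110, -106 and -47: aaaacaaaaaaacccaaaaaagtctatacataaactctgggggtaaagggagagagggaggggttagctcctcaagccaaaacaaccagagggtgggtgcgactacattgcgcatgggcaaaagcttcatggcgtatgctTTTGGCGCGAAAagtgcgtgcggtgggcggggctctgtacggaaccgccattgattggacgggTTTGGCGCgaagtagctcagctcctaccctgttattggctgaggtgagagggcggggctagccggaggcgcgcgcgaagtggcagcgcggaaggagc
These are among the letters known for E2F factors (TTTCCCGC, TTTCGCGC, TTTGCCGC and TTTGGCGC, searched on both strands). They stood in 2.6% of the windows of all genes with a promoter sequence, in 4.87% of those of the genes tested, in 6.6% of the genes called lower and 3.91% of those called higher, in 3.45% of the genes that fell at least 4-fold and 8.4% of those that rose at least 4-fold, and in 10 of the 22 replication genes with one (45.5%). Promoters of *Mcm4*, *Gins1*, *Gins2*, *Pole* and *Ccne2* were not analysed here.

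Of 15 regulators of the start of the cell cycle 3 were higher, 4 lower and 8 not called, near the 21.6% and 19.7% of all genes tested. *Mycn* went from 95.5, 89.3, 74.9, 98.7 and 127 rpm to 27.9, 38.2, 16.6, 58.5 and 49.6 rpm with no overlap (-1.46, adjusted *p* = 8.87e-05), and *Myc* from 22.1, 40.3, 39.3, 21.3 and 34.96 rpm to 9.29, 26.02, 6.92, 10.9 and 12.6 rpm with overlap (-1.37, adjusted *p* = 0.000674). Both encode growth-promoting transcription factors. *Cdkn1b*, the inhibitor p27, rose (0.96, adjusted *p* = 0.000255), as did the G1 kinase gene *Cdk6* (1.33, adjusted *p* = 0.000108), each in 5 of 5 series. Of 19 p53 target genes 5 were higher, 6 lower and 8 not called, and without the Nons series 3 were higher.

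Among signalling genes, in the FGF and ERK pathway 6 of 19 were higher, 9 lower and 4 not called. The feedback inhibitor *Spry4* went from 33.5, 44.2, 26.96, 42.1 and 62.4 rpm to 6.81, 8.92, 3.37, 14.3 and 15.6 rpm (-2.23, adjusted *p* = 7.81e-06), the ligand *Fgf4* from 196, 227, 246, 156 and 212 rpm to 118, 88.1, 73.5, 82.7 and 113 rpm (-1.13, adjusted *p* = 0.000119), and the target *Etv4* fell too (-1.55, adjusted *p* = 0.000474). The days of these 3 did not overlap. The ligand *Fgf17* rose from 1.57, 2.20, 3.44, 5.68 and 4.46 rpm to 16.1, 19.8, 15.6, 23.3 and 19.9 rpm (2.58, adjusted *p* = 1.07e-05), also with no overlap. *Dusp6*, a phosphatase induced by ERK, was higher in 5 of 5 series (0.36, adjusted *p* = 0.029), a call lost without the Nons (0.24) or Smarca4.4 (0.35) series and with values centred on the median gene (0.31).

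Of 21 Nodal and TGF-beta genes 4 were higher and 2 lower, of 17 BMP genes 6 were higher and 1 lower, and of 19 Wnt genes 2 were higher and 3 lower, or 1 higher without the Smarca4.4 series. The Nodal and Wnt counts do not exceed the 21.6% and 19.7% of all genes tested. The ligands *Nodal* (-0.00, adjusted *p* = 0.981) and *Bmp4* (0.19, adjusted *p* = 0.585) and the BMP target *Id1* (0.07, adjusted *p* = 0.749) did not pass the test. The Nodal antagonist *Lefty1* rose from 82.6, 109, 146, 89.2 and 116 rpm to 136, 149, 239.8, 238 and 285 rpm (0.92, adjusted *p* = 0.000486). *Nog*, the BMP antagonist noggin, had 9, 0, 7, 4 and 8 reads on day 5 and 77, 87, 49, 38 and 58 on day 6 (3.71, adjusted *p* = 1.95e-05), and the 0 is in the smallest library. The ligand *Bmp7* rose (1.46, adjusted *p* = 0.000222) and the BMP target *Id3* fell (-0.83, adjusted *p* = 0.00154). *Wnt8a*, a ligand of the epiblast, went from 7.14, 15.4, 10.4, 19.02 and 15.2 rpm to 0.573, 1.67, 2.29, 3.69 and 4.25 rpm with no overlap (-2.65, adjusted *p* = 2.31e-05). In the retinoic acid pathway, where 2 of 13 were higher and 4 lower, *Aldh1a2*, the enzyme that makes retinoic acid (-2.32, adjusted *p* = 7.55e-05), and *Crabp2*, a carrier of it (-0.81, adjusted *p* = 0.0012), fell. Only 4 of 39 Hox genes were tested, of which 2 were higher, or 1 without the Nons, Smarcc1.6 or Smarcc1.7 series.

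Of the genes of other lineages, many were too low to be tested. Of 13 neural genes tested out of 22, 1 was higher, *Nes*, the intermediate filament nestin (1.02, adjusted *p* = 0.00296), which fell by 0.17 in the Smarca4.6 series and was not called without the series block. Another 5 were lower, among them *Neurod1*, a neurogenic factor, with no overlap (-2.31, adjusted *p* = 9.37e-06), and 1 of the 5 was called without the series block. Of 12 blood and endothelial genes tested 2 were higher, or 1 without the Smarca4.4, Smarcc1.6 or Smarcc1.7 series, and 5 lower, among them *Etv2* (-1.80, adjusted *p* = 0.000327) and *Tal1* (-1.42, adjusted *p* = 0.00448), factors of the first blood cells. Of 16 primitive streak genes 4 were tested and 0 called by limma, or 2 without the Smarca4.6 series. *Eomes* missed the threshold (0.61, adjusted *p* = 0.0504) and passed it under 6 of the alternatives, and *T*, *Mesp1* and *Kdr* were under 1 rpm in all 10 libraries. Of 10 lateral and cardiac mesoderm genes 5 were higher, including *Pdgfrb*, a growth factor receptor of mesenchyme (1.46, adjusted *p* = 0.00735). The macrophage markers *Ptprc* and *Lyz2*, and *Hbb-bh1*, *Gata1* and *Cdh5* of blood and endothelium, were under 1 rpm in all 10 libraries, and *Hbb-bh1* had no read in any of them.

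Cytosolic ribosomal protein genes, which encode the ribosome, were higher by small amounts in the fit with the series block, 42 of 85 with 3 lower, 40 not called and a median of 0.26. Without the block 1 was called higher, and without the Nons series 5 were called lower. *Rps2* went from 1337, 1366, 1805, 1707 and 1207 rpm to 3061, 2008, 2920, 2682 and 1707 rpm and *Rpl13a* from 4127, 4940, 6685, 6451 and 3676 rpm to 8791, 6420, 9821, 9237 and 5177 rpm. Each series moved up in both genes, Nons by the most, the days overlapped, and the changes were 0.72 ± 0.113 (SE, adjusted *p* = 0.000513) and 0.61 ± 0.115 (SE, adjusted *p* = 0.00163). The *Rpl13a* call was lost without the block and under quantile normalization (0.29). *Rpl10l*, a copy of *Rpl10* used in the germline, fell from 37.2, 59.6, 70.1, 135 and 63.2 rpm to 14.4, 20.2, 26.5, 43.1 and 20.8 rpm (-1.52, adjusted *p* = 4.33e-06). Ribosomal protein genes have many near-identical copies in the genome, and how reads shared with them were counted is not given in the sources used here.

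Of 38 proteasome subunit genes tested 26 were lower, 1 higher and 11 not called, with a median of -0.40, and 7 were called lower without the series block. *Psmc1*, an ATPase of the regulatory particle, went from 250, 223, 282, 247 and 232 rpm to 127, 145, 124, 154 and 131 rpm with no overlap (-0.86, adjusted *p* = 0.000131). The higher one, *Psmb8*, is an immunoproteasome subunit induced by interferon (1.67, adjusted *p* = 7.01e-05). *B2m*, the light chain of MHC class I (1.86, adjusted *p* = 2.09e-05), and the interferon-induced *Isg15* (2.45, adjusted *p* = 6.52e-05) rose as well, and of 13 interferon response genes tested 4 were higher and 3 lower, or 1 lower without the Smarcc1.7 series.

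Of 75 nuclear genes of oxidative phosphorylation 20 were lower, 4 higher and 51 not called. With the Smarca4.4 or the Smarcc1.7 series left out 13 were lower, and without the block 5 were. With the Nons, Smarca4.4 or Smarcc1.6 series left out 2 were higher, and without the Smarcc1.7 series 1 was. *Atp5g1*, of the ATP synthase, fell with no overlap (-1.01, adjusted *p* = 7.7e-05), and *Uqcrh*, of complex III, with overlap (-0.70, adjusted *p* = 0.000556). Among 25 glycolysis and hypoxia genes 6 were higher and 5 lower, near the 21.6% and 19.7% of all genes tested. The glucose transporter gene *Slc2a3* rose from 739.8, 932, 942, 585 and 1047 rpm to 2448, 2662, 1786, 1898 and 2853 rpm (1.46, adjusted *p* = 7.66e-06), and the lactate dehydrogenase gene *Ldha* fell from 5443, 4517, 5051, 5290 and 4204 rpm to 4002, 3410, 2505, 4153 and 2256 rpm (-0.62, adjusted *p* = 0.00178), both with no overlap. Of 28 genes of cholesterol and fatty acid synthesis 5 were higher and 8 lower, including the fatty acid synthase gene *Fasn* (-1.14, adjusted *p* = 0.00108). With the Nons, Smarca4.4 or Smarcc1.7 series left out 5 of these were lower, without the Smarcc1.7 series 3 were higher, and without the block the *Fasn* call was lost. Of 19 ATF4 stress response genes 3 were higher and 7 lower.

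Among 19 imprinted genes 5 were higher, 6 lower and 8 not called, with a median of 0.05 and changes from -1.67 to 2.04. Without the Smarcc1.7 series 3 were higher. *H19*, an imprinted non-coding RNA, went from 137, 171, 206, 87.3 and 123 rpm to 563, 614, 560.1, 369.6 and 444 rpm, and its neighbour *Igf2*, a growth factor, from 7.09, 15.8, 11.2, 8.08 and 11.5 rpm to 22.6, 69.7, 31.1, 25.4 and 37.3 rpm. In both genes every library of day 6 was above those of day 5, and the changes were 1.85 ± 0.112 (SE, adjusted *p* = 1.14e-06) and 1.73 ± 0.141 (SE, adjusted *p* = 6.89e-06). *Sgce*, a sarcoglycan, rose as well (2.04, adjusted *p* = 3.15e-06). Of 19 germline and 2-cell genes 3 were higher and 7 lower, and of 11 replication-dependent histone genes tested 1 was higher.

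The step was set against its neighbours, with the change of each gene from day 5 to 6 tested against its change from day 4 to 5 and from day 6 to 7. These comparisons share the libraries of day 5 or of day 6, so a value high or low by chance on a shared day enters both steps with opposite sign. The step from day 5 to 6 was above the step from day 4 to 5 in 1538 genes (11.6%) and below it in 1532 (11.5%). It was above the step from day 6 to 7 in 736 genes (5.54%) and below it in 870 (6.54%). The second split depended on the scaling: with each library centred on its median gene 1049 were above and 684 below, and the median difference of all genes went from -0.11 to 0.03. Differences from the earlier step were called in 3070 genes with all 5 series, in 1966 without the Smarca4.4 series and in 1985 without the Smarcc1.7 series. Differences from the later step were called in 1606 genes with all 5 series. The totals were 309 without the Nons series, 773 without Smarca4.6, 879 without Smarcc1.7 and 1021 without Smarcc1.6.

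The step lay above both neighbours in 164 genes and below both in 90. Among those that averaged a log2 rpm of 1 or more over the 10 libraries, the largest rises of the first kind were *Tagln*, *Thbs1*, *Tinagl1*, *Cyr61* and *Anxa3*. *Ankrd1*, below that level, also rose by more than in both neighbouring steps. *Tagln* changed by 1.17, 4.78 and 1.25 in the 3 successive steps, *Thbs1* by -0.81, 4.67 and 1.75, *Tinagl1* by 0.62, 4.43 and 1.61, *Cyr61* by -0.38, 4.13 and 0.89, and *Anxa3* by -0.21, 4.11 and 1.94. For these 5 genes both differences held under the 12 alternatives run for them, which were filters, scalings, voom, thinning and leaving out each series. Other forms of the block were not run for differences between steps. The contractile list as a whole had medians of -0.17, 1.81 and 0.89, with 17 of its 22 genes above their step from day 4 to 5 and 11 above their step from day 6 to 7. With any 1 series left out 8 to 10 were above the later step.

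The largest falls of that kind were *Gpx2* (-0.26, -2.89 and -1.24), *Pim2* (0.25, -2.85 and -1.47), *Wnt8a* (-0.74, -2.65 and -0.74), *Btbd17* (1.43, -2.48 and -0.43) and *Morc1* (-1.03, -2.37 and -0.92), the last a germline ATPase. Their differences from the later step were less firm. That of *Gpx2* was lost under 8 alternatives, including each series left out (-1.97 to -1.39), and that of *Pim2* under 7, including without Nons (-1.10), Smarca4.6 (-1.01) or Smarcc1.7 (-1.36). That of *Wnt8a* was lost without Nons (-1.50) or Smarca4.4 (-1.76), that of *Morc1* without Smarca4.4 (-1.32) or Smarca4.6 (-1.43), and that of *Btbd17* without Smarca4.4 (-2.02), Smarca4.6 (-1.66) or Smarcc1.7 (-2.01) and after thinning (-1.80).

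The medians of other lists also differed between the steps. The LIF and Stat3 genes had medians of -0.46, 0.51 and 0.59, and 8 of 10 were above their step from day 4 to 5. Proteasome genes had medians of 0.24, -0.40 and -0.40, with 19 of 38 below the earlier step, or 11 without the Smarcc1.6 series, and oxidative phosphorylation genes 0.45, -0.15 and -0.49, with 37 of 75 below it, or 21 without the Smarca4.4, Smarca4.6 or Smarcc1.6 series. ATF4 genes had medians of 1.07, -0.14 and -0.25, and 11 of 19 were below the earlier step. Ribosomal protein genes had medians of 0.76, 0.26 and -0.51, with 24 of 85 below the earlier step and 50 above the later one. These counts changed with the series left out. Above the later step were 8 without Nons, 28 without Smarca4.6, 31 without Smarcc1.7, 36 without Smarcc1.6 and 47 without Smarca4.4. Below the earlier step were 9, 7 and 8 without Smarca4.4, Smarca4.6 or Smarcc1.6, 17 without Smarcc1.7 and 29 without Nons. By the median, naive pluripotency genes fell most from day 4 to 5, with -1.82, -0.85 and -0.04. Gene by gene, 6 of 16 were above their earlier step and 1 was below it. Formative and primed genes by the median fell most from day 5 to 6, with 0.02, -0.72 and -0.34. Of these 14 genes 5 were below the earlier step and 1 above it, and 2 were below the later step and 0 above it.

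**Figure D5:**
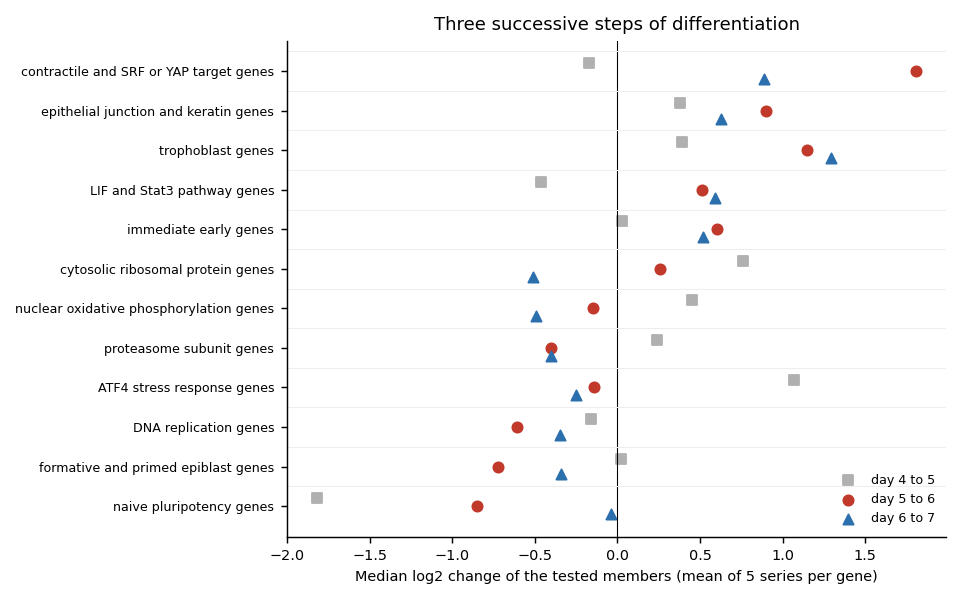
The median log2 change of the tested members of 12 gene lists is shown for the steps from day 4 to 5 (grey squares), 5 to 6 (red circles) and 6 to 7 (blue triangles). The contractile list stands at -0.17, 1.81 and 0.89, and the naive pluripotency list at -1.82, -0.85 and -0.04.

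The size of the whole step was measured as the Euclidean distance between the 2 libraries of a series over the genes tested. From day 5 to 6 it was 98.1, 88.96, 99.3, 88.9 and 83.3 in the 5 series (mean 91.7 ± 6.77 SD, n = 5). From day 4 to 5 it was 90.5, 92.7, 113.9, 111.9 and 88.2 (99.4 ± 12.4), and from day 6 to 7 it was 88.01, 64.7, 88.6, 87.9 and 56.1 (77.05 ± 15.5). The step from day 5 to 6 was longer than the later one in 5 of 5 series, by 14.7 on average (exact two-sided permutation test of signs, *p* = 0.0625, the smallest that 5 series allow). With 1 added to rpm it was longer in 4 of 5, by 9.52 (exact *p* = 0.1875). It was longer than the earlier one in 1 of 5 series, with a mean difference of -7.73 (exact *p* = 0.25). Over the 500 most variable genes that difference was 5.68 (exact *p* = 0.125), and with 1 added to rpm -5.15 (exact *p* = 0.5). Over all entries that difference was -16.31, with 0 of 5 series longer (exact *p* = 0.0625). The small Smarca4.4 library of day 5 enters the distances from day 4 to 5 and from day 5 to 6, but not the later one. Without the Smarca4.4 series the step from day 5 to 6 was longer than the later one in 4 of 4 series, by 12.26. Distances were not computed on thinned reads, so the part of depth in them was not tested.

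Few genes were called for a step that differed between knockdown groups. The step was compared between groups, with 2 series against 1 or 2. For Smarcc1 against Nons limma called 0 genes, with 625 at an unadjusted *p* under 0.05 and 2 called without a filter on low values. For Smarcc1 against Smarca4 it called 0, with 587 at an unadjusted *p* under 0.05, and 1 in the voom fit on recovered reads. For Smarca4 against Nons it called 1, *Btnl7*, a butyrophilin-like gene (chr17:34532877-34547651, minus strand), with 408 at an unadjusted *p* under 0.05. With these numbers of series a difference has to be large to be called, and the counts do not show that the groups moved alike. *Btnl7* had 21, 12, 54, 52 and 63 reads on day 5 and 1, 41, 77, 62 and 61 reads on day 6. It fell in Nons alone, and the Smarca4 step exceeded that of Nons by 4.82 ± 0.591 (SE, adjusted *p* = 0.0404). The call rests on the single read of Nons on day 6 and was lost when 1 was added to rpm (1.52), under quantile normalization (4.12), in the voom fit (4.31), after thinning (3.74) and without the Smarca4.4 (5.16), Smarca4.6 (4.49), Smarcc1.6 (4.82) or Smarcc1.7 (4.82) series.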

How the data were processed

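RNA was sequenced as 75 bp single-end reads from TruSeq libraries. Per the labels and the methods of the study, the authors used trim_galore for trimming and either hisat2 or tophat for mapping (build mm10). The values they deposited are log2 rpm per gene from SeqMonk. Its annotation release and strand setting are not given in the sources used here, so overlapping and antisense genes are uncertain. Depth and whole reads were recovered from the lowest value of each library, set at 0.9 read (100% of values below 1000 reads were whole within 0.05). Analysis used R 4.3.3 with limma 3.58.1 (lmFit, eBayes with trend) and Python 3.11.15, on the 13296 of 25965 entries whose mean over the 20 libraries reached a log2 rpm of 0, with series and day as terms. 13 mitochondrial entries had no reads.

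The series come from the titles, and each holds 1 hairpin followed over days. Day 5 and 6 deviations of a series correlated at 0.238 to 0.765, above every other series in each of the 5, and the series was kept as replicate block.

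The members and lists were chosen with earlier results of these data known. Genes named in the text are the 10 largest rises and 10 largest falls that were called, ran alike in all 5 series and averaged a log2 rpm of 1 or more, the defining and up to 4 most changed members of each of 39 fixed lists, the 5 rises and 5 falls above or below both neighbouring steps, calls of the knockdown contrasts, and the targets. *Cldn4*, *Cnn2*, *Ctgf*, *Grhl2*, *Itgb1*, *Lats2*, *Lin28a*, *Myl9*, *Srf*, *Tead4*, *Tpm1* and *Vcl* fall outside this rule and were chosen after their values were seen. Some genes that the rule names are not reported here. Alternatives were no block, a random block, all libraries of days 4 to 7 in the fit, filters, 1 added to rpm, centring, quantile normalization, voom, thinning to 6829596 reads, array weights and leaving out each series. Map2, Rian, Mirg and Kcnq1ot1 had no entry under these symbols. The fit was tested on simulated data.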

Additional observations from a re-analysis of the deposited data

Results flagged for a closer look

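Values were compared within the 5 series or the 5 libraries of a day. Of 141 such groups of 5 values checked, 16 had 1 value far from the other 4, and about 1 in 20 would be so by chance. Among the totals these were the 6829596 reads of the Smarca4.4 library of day 5 (the others held at least 19747429) and the 22472113 reads of the Smarcc1.6 library of day 6 (the others held at most 17369407).

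Among the log2 steps from day 5 to 6, Nons stood apart downwards in *Smarcc1* (-1.03), *Gm15055* (-5.43, 1 read on day 6), *Zfp42* (-1.08), *Tet1* (-2.21) and *Btnl7* (-4.06, 1 read on day 6), and upwards in *Rps2* (1.19) and *Rpl13a* (1.09). Smarca4.6 stood apart downwards in *Cnn2* (1.57), *Cldn4* (1.41), *Col4a2* (0.49) and *Nes* (-0.17). Smarca4.4 stood apart upwards in *Nog* (5.25), which had 0 reads in its small library of day 5. Smarcc1.6 fell least in *Foxd3* (-0.91), and Smarcc1.7 rose most in *B2m* (2.77). The outlying series ran in the direction of the other 4 in all of these genes but *Nes* and *Btnl7*.

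Between groups, the step of *Btnl7* in the Smarca4 series exceeded that of Nons by 4.82 in limma's test, and the mean step of the 4 knockdown series exceeded that of Nons by 4.59, a difference that was not tested as such. The step of *Otx2* was -0.61 and -0.51 in the Smarca4 series and 0.39 and 0.34 in the Smarcc1 series, a difference of 0.93 between the means. It was picked for these opposite steps, the difference of the means was not tested on its own, and in limma's fit of Smarcc1 against Smarca4 the number of genes called was 0.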

How the results depend on the processing

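Across 2145 combinations of the step of a named gene with an alternative, 2077 kept direction and side of the threshold, 53 lost the call, 15 gained it and 0 reversed. Of 244 combinations for 21 named differences between steps or groups 213 kept the call, 31 lost it and 0 reversed. Of 131 called named genes 107 kept their call throughout, and no called gene of the whole table reversed. The count of changed genes was 2724 without the replicate block and 3675 to 7118 under the other alternatives, with 4038 to 6281 when a series was left out. The 3675 came from the filter of at least 10 rpm, which tested only 8988 genes. The cause of the lower count without the block was not tested. Without the block 21 named genes lost their call, 11 of them there alone.

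Leaving out a series gave 1966 to 2653 differences from the step of day 4 to 5 and 309 to 1108 from that of day 6 to 7. For Smarcc1 against Nons the count was 2 without a filter. For Smarca4 against Nons it was 2 without a filter, 0 with a mean of at least 10 rpm, with 1 added to rpm, under quantile normalization, in voom and after thinning, and 0 to 0 with a knockdown series left out. For Smarcc1 against Smarca4 it was 1 in voom and 0 to 1 with a series left out. The distance from day 5 to 6 minus that from day 4 to 5 reversed over the 500 most variable genes (5.68). It ran from -11.55 to -3.91 with a series left out, and was -5.15 with 1 added to rpm and -16.31 over all entries. The distance from day 5 to 6 minus that from day 6 to 7 ran from 11.5 to 18.1 with a series left out. It was 9.52 with 1 added to rpm, 17.4 over the 500 most variable genes and 32.7 over all entries.

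The day 5 library of Smarca4.4 limits low genes: 3 reads are worth 0.439 rpm there.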
